A study of Mus musculus with 6 samples.

Results

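Ifit1, Ifit2, Ifit3, Oas1a, Oas2, Oasl2, Mx1, Isg15, Rsad2 and Bst2 are antiviral effector genes of the interferon response. They were chosen by name, as the rows of the deposited gene table that carry these 10 symbols, and all 10 were found among its 28752 genes. The samples were cultures of mouse intestinal crypt stem cells, sorted as Lgr5+ cells from Lgr5-GFP mice and grown into organoids. All 6 samples were exposed to hypoxia/reoxygenation (H/R), with 4 h at 2% O2, 72 h after an adenovirus infection, and polyadenylated RNA was sequenced. The 3 samples labelled vector, with the genotype given as WT, were compared with the 3 samples labelled circEZH2_005, in which this circular RNA of the Ezh2 gene was overexpressed. The infection text is the same for all samples, and it does not say whether the vector samples received an empty virus; no uninfected and no normoxic samples were analysed here. The study's methods describe its laboratory mice as young male C57BL/6 animals; whether this covers the Lgr5-GFP donors, and whether cells of several mice were pooled, is not given in the sources used here. The study describes its experiments in general as independent biological replicates, but no label ties these samples to separate mice or cultures, so the p-values measure only the spread between these samples.

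Interferons bound to their receptors activate JAK kinases and a complex of transcription factors that includes IRF9, which binds an interferon-stimulated response element near the start of its target genes. Ifit proteins bind viral RNA, Oas enzymes sense double-stranded RNA and make short oligoadenylates that act as a second messenger, and Mx1 is a GTPase that blocks viral replication. Isg15 is a ubiquitin-like modifier, Rsad2 (viperin) is a radical SAM enzyme that makes a chain-terminating nucleotide, and Bst2 (tetherin) holds budding virus at the cell surface. In the intestinal epithelium these genes are known for their response to type I and type III interferons. The genes lie in 7 places. Ifit2 (chr19:34550694-34576419), Ifit3 (chr19:34583531-34588731) and Ifit1 (chr19:34640871-34650009) form a cluster on the plus strand, and Oas2 (chr5:120730333-120749853) and Oas1a (chr5:120896256-120907521) share another on the minus strand. Oasl2 (chr5:114896936-114912234), Mx1 (chr16:97447035-97462907), Isg15 (chr4:156199455-156200796), Rsad2 (chr12:26442746-26456452) and Bst2 (chr8:71534255-71537456) lie apart. Coordinates are those of the deposited table, build mm10.

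RefSeq promoter windows (build GRCm38.p6, 250 bases before to 50 bases after the start of the gene) were matched for 8 of the 10 genes; Mx1 and Oas2 had no entry in the table used. GAAANNGAA, the core of the interferon-stimulated response element, was searched on both strands, and overlapping matches were counted. It occurred in 6 of the 8 genes, and 5 of them held more than 1 match, against 8.56% of 32851 promoter windows. The first bases of these matches lay between 155 and 14 bases before the start. The gamma-activated site TTCNNNGAA, which reads the same on both strands, was found in 3 of the 8 genes (Oas1a, Bst2 and Ifit2) and in 8.30% of all windows. The last 160 bases before the start are shown for the 6 genes with the response element and for Oasl2, whose window held neither motif; Ifit2, which has 2 windows, held the response element in neither. Capitals mark GAAANNGAA or its reverse complement.
Isg15 (chr4:156200819-156200978, minus strand): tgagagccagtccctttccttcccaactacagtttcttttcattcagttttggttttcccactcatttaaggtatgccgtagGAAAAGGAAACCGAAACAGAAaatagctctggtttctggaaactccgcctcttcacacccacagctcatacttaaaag
Ifit1 (chr19:34640729-34640888, plus strand): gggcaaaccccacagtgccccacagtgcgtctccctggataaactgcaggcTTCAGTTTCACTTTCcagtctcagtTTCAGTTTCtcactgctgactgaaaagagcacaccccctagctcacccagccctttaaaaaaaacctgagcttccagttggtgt
Ifit3 (chr19:34583369-34583528, plus strand): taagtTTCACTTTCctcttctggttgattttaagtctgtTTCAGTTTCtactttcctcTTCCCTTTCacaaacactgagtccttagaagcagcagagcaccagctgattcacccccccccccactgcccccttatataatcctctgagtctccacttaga
Oas1a (chr5:120907526-120907685, minus strand): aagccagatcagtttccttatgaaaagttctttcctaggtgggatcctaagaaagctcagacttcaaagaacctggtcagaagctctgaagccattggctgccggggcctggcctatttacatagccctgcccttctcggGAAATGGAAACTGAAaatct
Bst2 (chr8:71537473-71537632, minus strand): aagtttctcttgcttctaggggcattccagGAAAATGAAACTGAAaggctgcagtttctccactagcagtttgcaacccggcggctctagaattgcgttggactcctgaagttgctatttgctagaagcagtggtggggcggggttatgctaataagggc
Rsad2 (chr12:26456453-26456612, minus strand): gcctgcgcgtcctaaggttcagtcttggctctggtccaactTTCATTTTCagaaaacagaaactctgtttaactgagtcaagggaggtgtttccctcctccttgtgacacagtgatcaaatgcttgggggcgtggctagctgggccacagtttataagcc
Oasl2 (chr5:114896774-114896933, plus strand): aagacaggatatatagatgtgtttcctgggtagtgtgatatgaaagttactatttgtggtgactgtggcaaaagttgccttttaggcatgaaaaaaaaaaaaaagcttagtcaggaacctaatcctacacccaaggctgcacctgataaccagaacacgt
The matches of Isg15, Oas1a and Bst2 ran forward, whereas those of Ifit1, Ifit3 and Rsad2 read on the opposite strand. Within Isg15, Oas1a and Bst2 the matches overlapped each other, as did the Ifit1 matches with first bases at -109 and -103. A match describes these letters only, and binding was not measured.

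All 10 genes had a higher mean in the circEZH2_005 samples than in the vector samples, by 1.42-fold (Bst2) to 5.70-fold (Rsad2), but none of the 10 passed an adjusted p of 0.05. The test was edgeR's quasi-likelihood test over the 18348 genes with enough counts, with Benjamini-Hochberg adjustment, and the adjusted p-values of the 10 genes ran from 0.0601 to 0.580. Across all tested genes the same rule called 493 higher, or 2.69%, and 181 lower, or 0.986%. At an unadjusted p under 0.05, 5 of the 10 genes were higher, against 14.0% of all tested genes, and the same 5 (Mx1, Rsad2, Oasl2, Ifit1 and Ifit2) also exceeded a fold of 2, against 6.22%. DESeq2 called 2 of the 10 (Rsad2, adjusted p = 0.00947, and Mx1, adjusted p = 0.0106), against 9.65% of the genes with an adjusted p, and limma on log2(FPKM + 1) called 0, against 2.79%. The median log2 fold change of the 10 genes was 1.31, where the median of all tested genes was 2.15e-05.

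Single samples differed within both groups. Vector sample 2 was the highest vector sample in 10 of 10 genes and circEZH2_005 sample 3 the lowest circEZH2_005 sample in 10 of 10, an order that 14.1% of tested genes shared. Vector sample 2 stood 2.30 to 4.62 times above the mean of vector samples 1 and 3, and it was more than 2 times that mean in 10 of 10 genes, against 7.16% of tested genes. All 3 circEZH2_005 samples lay above vector samples 1 and 3 in 10 of 10 genes, against 22.2% of tested genes. Without circEZH2_005 sample 3, 8 of the 10 did not overlap between groups, against 22.0% of tested genes. Against vector sample 2, however, all 3 lay higher for 3 genes (Rsad2, Mx1 and Ifit2), so that the groups did not overlap there, as in 16.4% of tested genes; 2 of them lay higher for 5 genes, 1 of them for Ifit3 and 0 of them for Bst2. For each gene, the CPM of vector sample 2 was divided by the mean of vector samples 1 and 3, and the circEZH2_005 mean by vector sample 2. The first ratio was larger than the second in 9 of 10 genes. Why vector sample 2 stood apart was not tested.

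**Figure D1:**
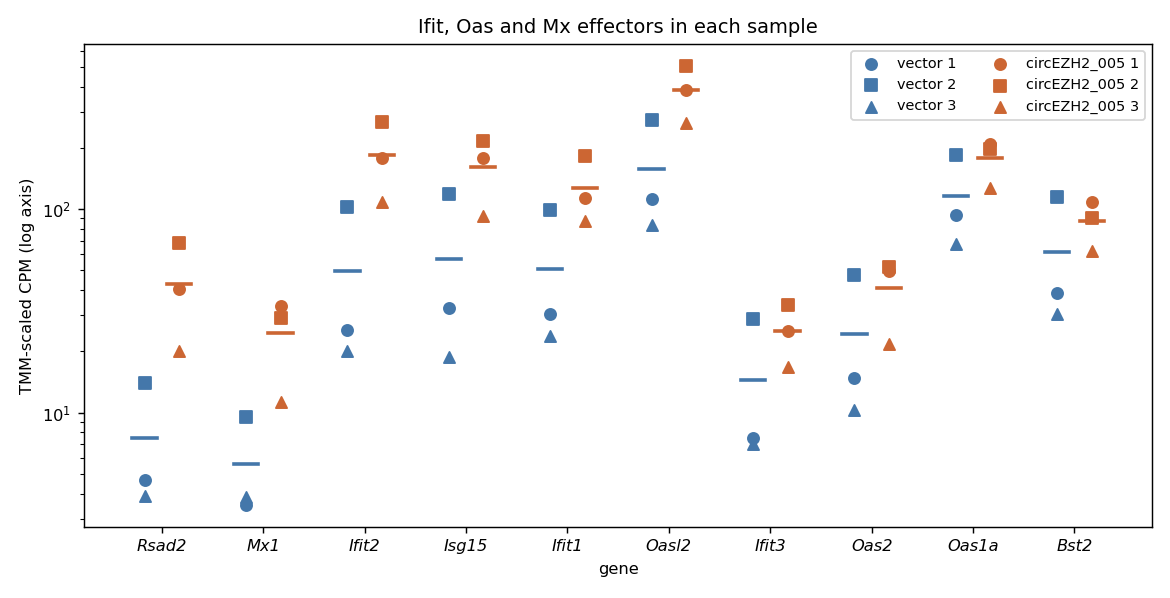
TMM-scaled CPM (log axis) of the 10 antiviral effector genes in each of the 6 samples, ordered by fold change; blue marks are vector samples 1 to 3, orange marks circEZH2_005 samples 1 to 3, and short bars are group means. The blue square, vector sample 2, is the highest vector sample for every gene, and for Bst2 it lies above all 3 orange marks.

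Without vector sample 2, which leaves 2 vector samples against 3, the fold changes of all 10 genes rose. That direction followed from the sample left out, since it was the highest vector sample for every one of the 10 genes. All 10 genes were called at edgeR adjusted p-values of 0.0061 to 0.0429, with folds of 2.20 (Oas1a) to 10.04 (Rsad2), against 5.74% of the 19145 genes then tested. The median log2 fold change became 2.11. Leaving out any one of the other 5 samples called 0 of the 10. By this edgeR fit, the call on these genes therefore turned on 1 control library, and the labels give no reason to set that library aside. With all 6 samples kept, DESeq2 called 2 of the 10, so the call also depended on the test.

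**Figure D2:**
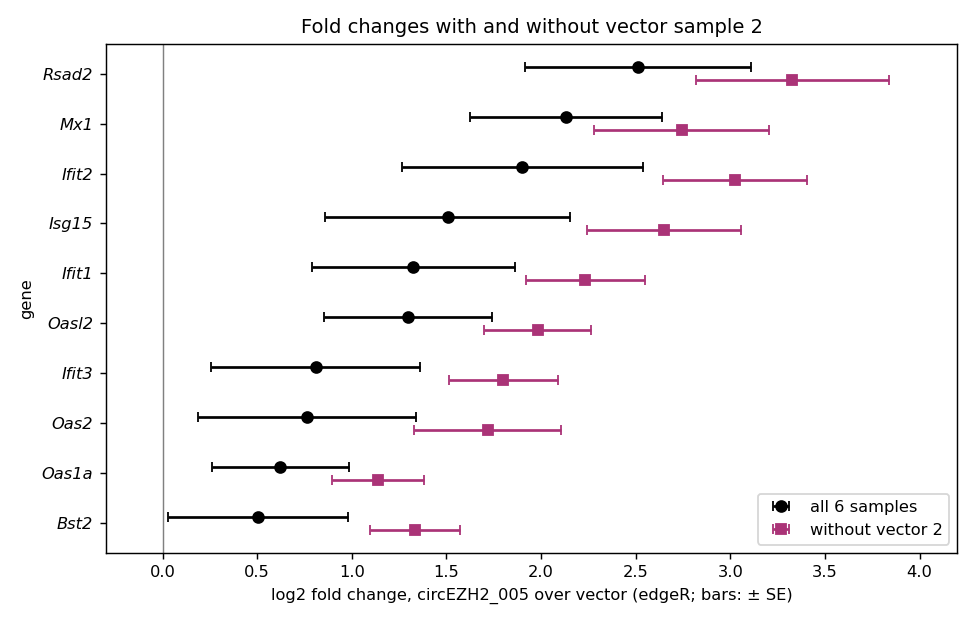
Log2 fold change of circEZH2_005 over vector for each gene by edgeR, with bars of 1 SE; black circles use all 6 samples and purple squares leave out vector sample 2. Every estimate is above 0 in both, and without vector sample 2 they run from 1.14 (Oas1a) to 3.33 (Rsad2).

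Among the enzymes and modifiers, Rsad2 had the largest fold change. On the CPM scale (counts scaled to library size by edgeR's TMM factors, with samples 1, 2 and 3 of a group given in that order), the vector samples had 4.68, 14.05 and 3.88 and the circEZH2_005 samples 40.6, 68.3 and 20.1. The groups did not overlap. Its log2 fold change was 2.51 (SE 0.60), with an edgeR adjusted p of 0.0601. Mx1 had 3.52, 9.49 and 3.83 CPM in the vector samples and 33.5, 29.2 and 11.2 CPM in the circEZH2_005 samples, again without overlap, although circEZH2_005 sample 3 was close to vector sample 2. Its log2 fold change was 2.13 (SE 0.51), with an edgeR adjusted p of 0.0604. Many inbred laboratory strains carry a defective Mx1 allele, C57BL/6 among them, and the background of the Lgr5-GFP mice is not given.

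Isg15 is secreted and also conjugated to proteins. It was at 32.8, 119 and 18.8 CPM in the vector samples and at 178, 215 and 92.7 CPM in the circEZH2_005 samples, so that vector sample 2 lay above circEZH2_005 sample 3. The log2 fold change of 1.51 had an SE of 0.65, the largest SE of the 10 genes, and an edgeR adjusted p of 0.211. Bst2 was at 38.5, 115 and 30.6 CPM in the vector samples and at 109, 90.4 and 62.4 CPM in the circEZH2_005 samples. Vector sample 2 exceeded every circEZH2_005 sample for Bst2, and the log2 fold change was 0.50 (SE 0.48, edgeR adjusted p = 0.580).

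The 3 Ifit genes, neighbours on chromosome 19, had log2 fold changes of 0.81 to 1.901. Ifit2 was at 25.4, 102.7 and 20.1 CPM in the vector samples and at 177, 267 and 109 CPM in the circEZH2_005 samples. Its groups did not overlap in CPM, but on the deposited FPKM scale circEZH2_005 sample 3 (23.5 FPKM) fell below vector sample 2 (24.5 FPKM). The log2 fold change of Ifit2 was 1.901 (SE 0.64, edgeR adjusted p = 0.125). Ifit1 was at 30.4, 98.6 and 23.9 CPM against 114, 181 and 87.5 CPM, with vector sample 2 above circEZH2_005 sample 3 and a log2 fold change of 1.32 (SE 0.54, edgeR adjusted p = 0.187). Ifit3, at 7.47, 28.7 and 7.03 CPM against 25.2, 33.8 and 16.7 CPM, had the smallest of the 3, with a log2 fold change of 0.81 (SE 0.55, edgeR adjusted p = 0.425). Ifit3 has a close copy, Ifit3b: 51.2% of the 50-base windows of its longest transcript are also in a transcript of Ifit3b, and the counting does not state how such reads were divided, so the Ifit3 values are uncertain.

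Of the Oas genes, Oasl2, an Oas-like protein, had the largest fold change. It was at 112, 275 and 83.6 CPM in the vector samples and at 384, 505 and 266 CPM in the circEZH2_005 samples. Only circEZH2_005 sample 3 did not exceed vector sample 2, and the log2 fold change was 1.296 (SE 0.44, edgeR adjusted p = 0.131). Oas2 was at 14.8, 47.6 and 10.3 CPM against 49.7, 52.1 and 21.7 CPM, so that circEZH2_005 samples 1 and 2 lay just above vector sample 2. Its log2 fold change was 0.76 (SE 0.58, edgeR adjusted p = 0.477). Oas1a was at 93.8, 185 and 67.4 CPM against 209, 197 and 127 CPM, a log2 fold change of 0.62 (SE 0.36, edgeR adjusted p = 0.349). Oas1a shares 57.6% of its 50-base windows with Oas1g, which makes its values uncertain in the same way, while Oas2, Oasl2, Ifit2, Rsad2 and Bst2 share 0 windows with other genes and Ifit1, Mx1 and Isg15 share 3.96% to 7.13%. The antisense gene Gm43068, which overlaps Oas2, had at most 19 counts in a sample.

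Taken gene by gene, a two-sided exact permutation test on the difference in mean CPM gave p = 0.1 for Rsad2, Mx1 and Ifit2, the smallest that 3 against 3 samples can give, and p = 0.2 to 0.5 for the others. On the length-scaled FPKM, levels ran in nearly the same order in both groups. In the vector samples Isg15 was highest (75.3 FPKM ± 72.8, SD, n = 3), followed by Bst2 (63.2 ± 48.8), Oas1a (56.8 ± 31.1), Oasl2 (22.8 ± 15.3), Ifit1 (17.8 ± 14.7), Ifit2 (11.7 ± 11.1), Ifit3 (7.68 ± 6.70), Oas2 (5.06 ± 4.32), Rsad2 (1.62 ± 1.23) and Mx1 (1.37 ± 0.843). In the circEZH2_005 samples Isg15 (201 FPKM ± 77.6, SD, n = 3) was again first and Mx1 (5.71 ± 2.92) last, and Rsad2 (8.59 ± 4.61) passed Oas2 (8.09 ± 3.45). Every pair of neighbours in this order overlapped in range in both groups, except Ifit2 and Ifit3 in the circEZH2_005 samples. Compared within each sample, neighbours kept their order in 3 of 3 samples, apart from these pairs. In the vector samples, Isg15 over Bst2 and Rsad2 over Mx1 held in 2 of 3, and Bst2 over Oas1a in 1. In the circEZH2_005 samples, Bst2 over Oas1a and Ifit1 over Ifit2 held in 2 of 3, and Rsad2 over Oas2 in 1.

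The 13 paralogs of the Ifit, Oas and Mx families, which were no members of the set, gave 12 tested genes, of which 11 had a positive log2 fold change and 1 was called higher. That gene was Oasl1, an Oas-like protein, at 47.8, 85.4 and 46.0 CPM in the vector samples and 173, 255 and 143 CPM in the circEZH2_005 samples. These groups did not overlap (log2 fold change 1.67, SE 0.30, edgeR adjusted p = 0.0332). Vector sample 2 was 1.82 times the mean of the other vector samples for Oasl1, below the 2.30 to 4.62 times of the 10 effectors. Oas1e, at 0.26, 0.92 and 0.10 CPM against 3.70, 6.73 and 2.85 CPM, had a log2 fold change of 3.36 (SE 0.73) and an edgeR adjusted p of 0.0520. Ifit1bl1, in the Ifit cluster between Ifit3 and Ifit1, was at 50.5, 222 and 44.0 CPM against 360, 506 and 188 CPM (edgeR adjusted p = 0.164). Mx2 was at 6.04, 14.7 and 5.21 CPM against 20.8, 22.0 and 14.1 CPM (edgeR adjusted p = 0.135). The median log2 fold change of the 12 genes was 0.71, and 5 of them were called higher without vector sample 2. The call on Oasl1 was lost without vector sample 1, vector sample 3, circEZH2_005 sample 2 or circEZH2_005 sample 3 (adjusted p = 0.0549 to 0.138), each of which leaves 5 samples.

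Upstream of these genes, most of the interferon genes that could be read were close to absent. Of 10 ligand genes listed, 5 were in the table, and Ifne, Ifnk, Ifnl2 and Ifnl3 had at most 15 counts in any sample. Ifnb1, Ifna1, Ifna2, Ifna4 and Ifna5 had no entry, so the levels of these type I interferons are not known here. Ifng, the type II interferon made by lymphocytes, was the exception, with 14, 87 and 8 counts in the vector samples and 386, 297 and 79 in the circEZH2_005 samples. Vector sample 2 lay above circEZH2_005 sample 3 for Ifng, and the log2 fold change of 2.77 (SE 0.91) had an edgeR adjusted p of 0.122. Without vector sample 2 it was called (adjusted p = 0.0159). Of the 6 receptor genes 0 were called, with log2 fold changes between -0.27 (Ifngr1) and 0.37 (Ifnar2), and 0 were called without vector sample 2. The 3 kinases Jak1, Jak2 and Tyk2 were not called either, with log2 fold changes of 0.17 to 0.51.

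Of the 6 transcription factors, 1 was called higher. Irf1 was at 180, 278 and 151 CPM in the vector samples and at 363, 494 and 445 CPM in the circEZH2_005 samples, with no overlap (log2 fold change 1.10, SE 0.23, edgeR adjusted p = 0.0472). Stat2 (log2 fold change 1.06, SE 0.35) and Irf7, the amplifier of interferon production (1.29, SE 0.41), had edgeR adjusted p-values of 0.127 and 0.116. Irf3 had a log2 fold change of -0.20. Without vector sample 2, 5 of the 6 were called higher.

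Among 8 sensors and adaptors 0 were called, with Zbp1, a sensor of Z-form nucleic acid, having the largest log2 fold change (40.8, 99.2 and 29.3 CPM against 160, 228 and 163 CPM; log2 fold change 1.70, SE 0.42, edgeR adjusted p = 0.0667). Of the 4 genes that attach Isg15 to proteins, the activating enzyme Uba7 was called (61.2, 74.9 and 61.8 CPM against 100, 146 and 105 CPM; log2 fold change 0.83, SE 0.16, edgeR adjusted p = 0.0402), and without vector sample 2 all 4 were. Of 4 feedback genes 0 were called, Usp18, which removes Isg15, having a log2 fold change of 1.66 (SE 0.54, edgeR adjusted p = 0.119) and Socs1 one of 2.23 (SE 0.67, edgeR adjusted p = 0.1).

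The 14 other effectors held 2 called genes, Ifi27l2a (5.87, 11.5 and 6.66 CPM against 53.9, 40.1 and 17.9 CPM; edgeR adjusted p = 0.0394) and Samhd1, which depletes nucleotides (121, 186 and 107 CPM against 263, 385 and 262 CPM; edgeR adjusted p = 0.0482). Ifitm2, Ifitm1 and Ifitm3, which block viral entry, had log2 fold changes of -0.11, 0.04 and 0.32. Ifitm3 was at 78.2, 185 and 69.2 CPM against 170, 118 and 127 CPM (edgeR adjusted p = 0.648). Without vector sample 2, Ifitm3 was called (edgeR adjusted p = 0.0228) and Ifitm1 and Ifitm2 were not. In all, 5 of 47 tested pathway genes were called higher and 0 lower, 41 had a positive log2 fold change and their median was 0.58. Without vector sample 2, 29 of 47 were called higher and 0 lower. Leaving out any other single sample, circEZH2_005 sample 1 and 3 included, called 0 or 1 of the 47.

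**Figure D3:**
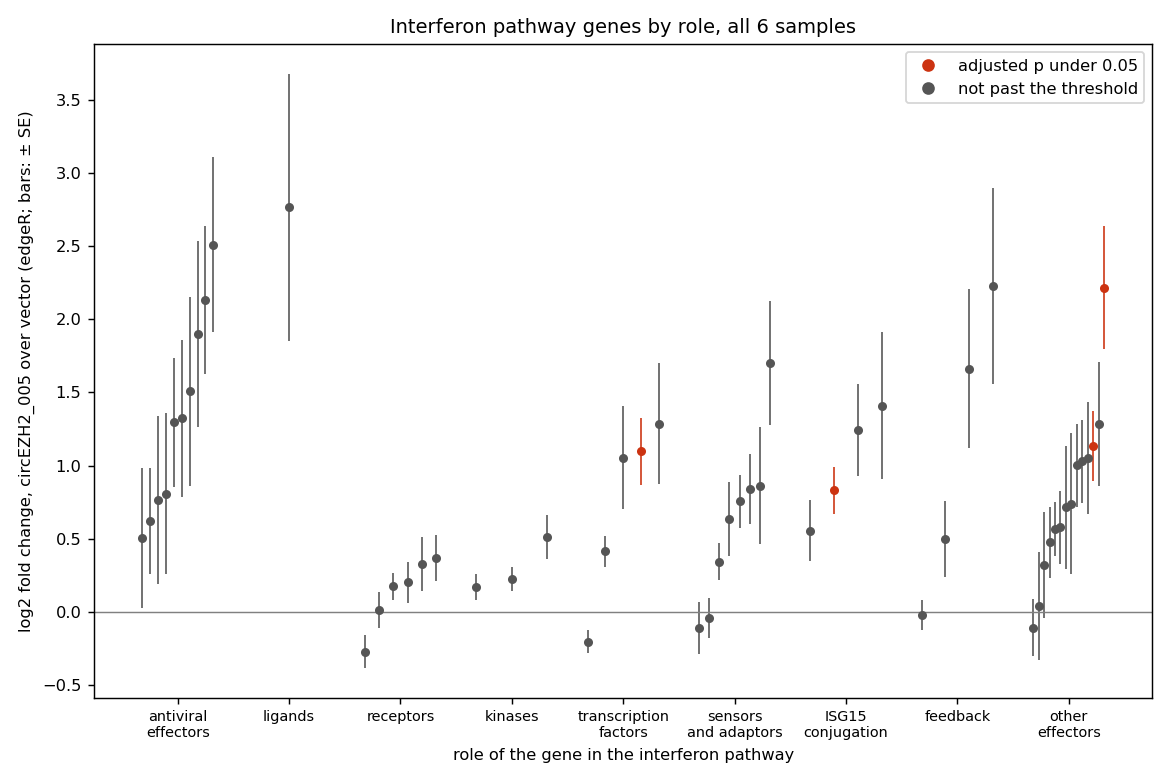
Log2 fold change of circEZH2_005 over vector with bars of 1 SE (edgeR, all 6 samples) for the 10 antiviral effectors and tested pathway genes, grouped by role, without those not reported here; red points have an adjusted p under 0.05. The 6 receptor genes lie between -0.27 and 0.37, whereas the 10 effectors lie between 0.50 and 2.51, none of them red.

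Outside the 10 genes, the profiles most like their mean log2 CPM over the 6 samples, at mean levels of 1 FPKM or more, were those of Ifit1bl1 and Trim25 (Pearson r = 0.997), Mx2 and Trim30a (r = 0.996) and Xaf1 (r = 0.995). These 5 share libraries and depth with the set, so r is a description. Next, the nearest tested protein-coding genes on either side of the 7 places were taken, 14 in all, leaving out genes of the paralog and pathway lists. These 14 had a median log2 fold change of 0.19, and 3 of them were called. Across all tested genes 2.69% were called higher and 0.986% lower. Rnf144a beside Rsad2 (0.44, 0.58 and 0.51 CPM against 2.87, 2.47 and 1.27 CPM) and Perm1 beside Isg15 (3.85, 3.63 and 2.79 CPM against 6.52, 11.2 and 6.70 CPM) were higher. Slc16a12 beside Ifit1 was lower (13.7, 9.81 and 12.3 CPM against 6.21, 4.17 and 5.53 CPM). Fam3b and Bace2, on either side of Mx1, had log2 fold changes of 0.13 and -0.02. Vector sample 2 was more than 2 times the mean of vector samples 1 and 3 for 2 of the 14 neighbours, against 10 of the 10 effectors. Genes of the paralog and pathway lists could not be among the 14. Cmpk2 and Oasl1 lie nearer to Rsad2 and Oasl2 than the neighbours used there (log2 fold changes of 1.29 and 1.67). For Cmpk2 and Oasl1, vector sample 2 was 2.40 and 1.82 times the mean of vector samples 1 and 3.

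Leukocyte genes, taken as a sum, were high in the same samples, but single markers differed. The 12 leukocyte markers summed to 70.2, 206 and 85.1 CPM in the vector samples and to 494, 370 and 278 CPM in the circEZH2_005 samples, and vector sample 2 was again the highest vector sample and circEZH2_005 sample 3 the lowest circEZH2_005 sample. Of the 12, 1 was called higher (Itgax, edgeR adjusted p = 0.0362), 5 were called without vector sample 2, and none was at 0 in any sample. The same order of samples held for 10 of the 12, and the groups did not overlap in CPM for 6. Lyz2 and Adgre1 broke the order. Lyz2 was at 7.97, 14.95 and 7.615 CPM against 11.92, 4.93 and 17.67 CPM (log2 fold change 0.18, edgeR adjusted p = 0.859). Adgre1 was at 0.318, 0.616 and 0.652 CPM against 1.145, 0.444 and 0.530 CPM. Ptprc, the pan-leukocyte phosphatase, was at 22.8, 78.6 and 31.9 CPM against 185, 140 and 103 CPM, and the T cell gene Cd3e at 3.55, 16.5 and 4.41 CPM against 37.6, 32.0 and 21.6 CPM. Of 4 plasmacytoid dendritic cell markers, 3 had a positive log2 fold change and Siglech was called higher (0.17, 0.67 and 0.23 CPM against 2.49, 1.94 and 2.09 CPM; edgeR adjusted p = 0.0426). The list summed to 43.3 to 58.5 CPM in the vector samples and 68.9 to 86.9 CPM in the circEZH2_005 samples, most of it from Klk1 (37.3 to 45.4 CPM against 50.8 to 56.8 CPM, edgeR adjusted p = 0.0816), and Ly6d had a log2 fold change of -1.15 (edgeR adjusted p = 0.125). The part of leukocyte RNA in the values of the 10 effectors was not tested, and in bulk RNA more cells of a type and more RNA per cell cannot be told apart. The order within groups was not the same, since the leukocyte sum was highest in circEZH2_005 sample 1 and the sum of the 10 effectors in circEZH2_005 sample 2 (1319, 1639 and 814 CPM, against 363, 996 and 270 CPM in the vector samples).

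**Figure D4:**
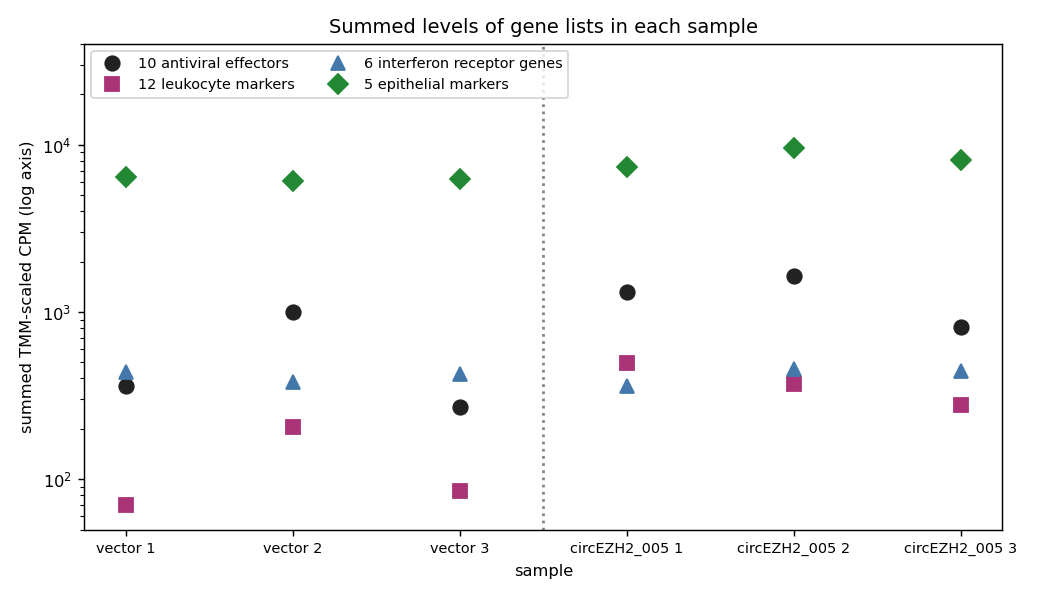
Summed TMM-scaled CPM (log axis) of the 10 antiviral effectors, 12 leukocyte markers, 6 interferon receptor genes and 5 epithelial markers in each sample. The effectors and the leukocyte markers are both higher in vector sample 2 than in the other vector samples, at 996 and 206 CPM, while the receptor and epithelial sums there (379 and 6029 CPM) are close to those of the other vector samples.

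The other checks on the samples were as follows. The epithelial markers summed to 6029 to 6366 CPM in the vector samples and 7395 to 9615 CPM in the circEZH2_005 samples. Of these 5 markers, Krt8 was called higher (log2 fold change 0.57, edgeR adjusted p = 0.0301). The stem cell markers Lgr5 and Smoc2 were present and lower in the circEZH2_005 samples (log2 fold changes of -0.88 and -0.81, edgeR adjusted p = 0.0434 and 0.0203). The other 3 stem cell markers were not called: Ascl2 had a log2 fold change of -0.68, Olfm4 of -0.42 and Axin2 of 0.31 (edgeR adjusted p = 0.0921, 0.314 and 0.219). Enterocyte, Paneth and goblet markers were present too. The 5 fibroblast markers summed to at most 10.5 CPM in any sample, and the endothelial Cdh5 and Kdr were at 0.243 CPM or less, Kdr being at 0 in 2 samples and Cdh5 in 1. The third endothelial marker, Pecam1, was called higher (0.64, 1.07 and 1.24 CPM against 5.22, 3.44 and 2.55 CPM; log2 fold change 1.93, SE 0.36, edgeR adjusted p = 0.0377). The calls on these markers were lost when vector sample 1, vector sample 3 or circEZH2_005 sample 2 was left out (adjusted p of Lgr5 up to 0.166, of Smoc2 up to 0.103, of Krt8 up to 0.154, of Itgax up to 0.152, of Siglech up to 0.166 and of Pecam1 up to 0.133). Without circEZH2_005 sample 1 the calls on Lgr5, Itgax, Siglech and Pecam1 were lost too, and without circEZH2_005 sample 3 those on Lgr5, Smoc2, Krt8, Siglech and Pecam1. Depth was 71506487 to 79919893 counts a sample, at which 3 counts are 0.0377 to 0.0419 CPM. The circular RNA cannot be read from gene counts of polyadenylated RNA, so its overexpression was not checked here; its host gene Ezh2 had 5064, 4632 and 5837 counts in the vector samples and 5534, 4383 and 4354 in the circEZH2_005 samples.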

How the data were processed

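RNA of 3 vector and 3 circEZH2_005 samples was sequenced after poly(A) selection. The submitters' processing notes name cutadapt 1.9, HISAT2 2.0.4, StringTie 1.3.4d, DESeq2 and build mm10; the counter, its annotation, strand setting and treatment of shared reads are not given in the sources used here. The authors deposited 1 table of raw read counts and FPKM per gene, unnormalised and scaled to length and depth respectively; 0 columns of sample values were left unused. Genes were kept by filterByExpr and tested on counts with edgeR 4.0.16 (R 4.3.3; TMM, quasi-likelihood), with Benjamini-Hochberg adjustment over all genes. Alternatives were RLE factors, DESeq2 1.42.0, no filter, a replicate block, limma 3.58.1 on log2(FPKM + 1), keeping genes that averaged 0.5 FPKM or more, a pseudocount of 0.1, and leaving out each sample. Fits were tested on simulated counts with planted fold changes and the same variance setting for every gene and sample. No simulated library stood apart, so that run does not bear on vector sample 2. The 10 genes, the paralog, pathway and marker lists and the motifs were chosen with earlier results of these data known. The genes named were all 10, list genes by role, the nearest neighbours outside the paralog and pathway lists, the 5 most alike profiles, Ezh2 and the markers. Shared windows were counted in GENCODE M21 transcripts. The sources differ on the time between infection and H/R; the labels' time is given. Single values of some genes on these lists are not reported here.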

Additional observations from a re-analysis of the deposited data

How the results depend on the processing

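The log2 fold changes of the 10 genes kept their direction in all 130 combinations of gene and alternative, and 16 of the 130 crossed to an adjusted p under 0.05. With all samples, the count of the 10 called higher was 0 and became 2 with DESeq2 and 4 with a replicate block; RLE factors, no filter and the 3 limma fits gave 0. Leaving out each sample in turn gave 0 to 10 called, 2 to 10 past fold and unadjusted p, 3 to 10 without overlap, and a median log2 fold change of 0.984 to 2.11, the upper ends without vector sample 2. Paralogs called higher, 1 with all samples, were 5 with DESeq2, 5 with the replicate block, 2 in both filtered limma fits, 0 without a filter in edgeR or limma, and 0 to 5 when a sample was left out. Pathway genes called higher, 5 with all samples, were 15 with DESeq2, 13 with the block, 2 with limma and a pseudocount of 0.1, 0 without a filter in edgeR or limma, and 0 to 29 when a sample was left out. The fit across all genes called 493 higher and 181 lower, with the block 241 and 36, without a filter 132 and 37, and with DESeq2 1588 and 701. The cause of these differences was not tested. Fits that left out a sample also had fewer samples, and that part was not tested either. Same-numbered samples did not deviate together (r of -0.136, -0.0234 and 0.0363) and no sample label ties the numbers to a shared mouse or day, so the block pairs numbers only; 1 of the 3 vector samples, the third, correlated best with its own number.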
